A study of Mus musculus with 18 samples.

Results

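The antigen receptor and CD28 signalling components described here are 47 genes, chosen as a list of gene symbols from knowledge of the pathway and covering receptor subunits, kinases, adaptors, lipid, calcium and MAP kinase branches and negative regulators. The choice was made with earlier results of these data known, so the list is not independent of them. All 47 were found among the 26665 genes listed and were measured in each of 18 libraries of CD4 T cells sorted from mouse spleen (strain C57BL/6). The sorted populations were Nrp1+ regulatory T cells (Treg), labelled tTreg, Nrp1- Treg, labelled pTreg, and conventional T cells (Tconv). They came from Foxp3EGFP mice, labelled WT, and from CD28-/-Foxp3EGFP mice, labelled CD28KO, so that all 18 libraries carry the Foxp3 reporter allele. There were 3 libraries in each of the 6 groups. The age and sex of the mice, any pooling of animals and whether the 3 libraries of a group are separate animals are not given in the sources used here, so the p-values below measure only the spread between these libraries, which may be technical. Values are FPKM, which scales read number to transcript length and library total and permits levels of different genes to be set side by side. Changes are differences in log2(FPKM + 1), a scale on which 1 unit is close to a 2-fold change and low genes are compressed.

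When a T cell meets antigen, the T cell receptor passes the signal through the CD3 chains and the zeta chain to the kinases LCK and ZAP70, which phosphorylate the adaptors LAT and SLP-76. These scaffolds recruit phospholipase C gamma, whose products open the calcium, calcineurin and NFAT branch and the RASGRP1, RAS and PKC theta branches, the last feeding NF-kB through BCL10 and MALT1. CD28 is the classical costimulatory receptor: its tail binds PI3 kinase, GRB2 and related adaptors and adds to the AKT, VAV1 and PKC theta signals. Treg depend on both inputs for their development and upkeep.

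The sort genes and the targeted gene were checked first. Cd28 measured 57.5, 59.7 and 62.9 FPKM in WT tTreg against 71.2, 76.3 and 80.6 in the libraries labelled CD28KO, 31.5, 59.7 and 53.2 against 54.1, 87.3 and 86.8 in pTreg, and 33.6, 82.8 and 67.3 against 65.7, 116.7 and 84.0 in Tconv. The Cd28 transcript was thus not lower in any library group labelled CD28KO (differences of 0.34, 0.67 and 0.58 on the log2 scale, lowest limma adjusted p = 0.547). A gene-level value does not show which exons were read, so it is no check of the genotype, and the direction of every CD28KO minus WT difference below rests on the labels. Foxp3 lay between 56.0 and 137 FPKM in the Treg libraries, and Nrp1 between 55.6 and 83.5 in tTreg and between 0.449 and 0.911 in pTreg. CD28KO Tconv replicate 3 had a Foxp3 value of 21.1 FPKM against 0.0670 and 0.205 in the other libraries of that group. The summed FPKM of 5 Treg markers was 105.6 in that library and 3.79 and 4.83 in the others. In CD28KO tTreg replicate 3 the sum of 4 Tconv markers was 46.1 against 4.30 and 7.32. Markers of B cells were low but uneven. The 7-gene sum was 43.4 to 62.4 in WT tTreg and 5.85 to 13.0 in WT Tconv, most of it Cd74. The part of other cells in the results was not tested.

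All 47 components were expressed in every group, and 46 of 47 had a mean above the median of all 12265 genes tested (52.7 FPKM for the median component against 11.2). Means over the 18 libraries ran from 6.74 FPKM for Sos1, a RAS exchange factor, to 568 for Lat, the membrane scaffold, and 17 components exceeded 100. The order of the components was nearly the same in each group: Spearman's rho between the group means of 2 groups lay between 0.959 and 0.994 in the 15 pairs (n = 47 genes, which share libraries and are not replicates).

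In the receptor complex, the CD3 chains Cd3e (469 FPKM, mean over all libraries), Cd3g (393) and Cd3d (224) were higher than Cd247 (152), which encodes the zeta chain with most of the activation motifs. The tyrosine phosphatase Ptprc (CD45), which activates LCK, stood at 356 FPKM, and the coreceptor Cd4 and the inhibitory scavenger receptor Cd5 both at 198. Among the proximal kinases and adaptors, the kinase Lck (399) was more abundant than its relative Fyn (139), than Csk (168), which restrains both, and than Zap70 (127), which binds the phosphorylated chains. The adaptors that assemble on LAT were Lcp2 (SLP-76, 105), Grap2 (GADS, 85.1) and Grb2 (68.8). Their effectors Plcg1, the phospholipase, and Vav1, an exchange factor, had means of 69.1 and 52.7.

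In the PI3 kinase branch, the leukocyte catalytic subunit Pik3cd (162 FPKM) exceeded the ubiquitous Pik3ca (11.95) and the regulatory subunit Pik3r1 (35.6). The kinases downstream were Pdpk1 (17.3), Akt1 (39.3) and Akt2 (43.6), and Inpp5d (SHIP1), which removes the lipid signal, stood at 31.4. Prkcq, the PKC theta recruited by CD28, had 97.1 FPKM, and its partners Bcl10 and Malt1 29.9 and 29.1. The RAS branch was led by the exchange factor Rasgrp1 (66.9), with Nras (17.3), the kinase Mapk3 (ERK1, 16.9) and Sos1 below it. In the calcium branch Nfatc1 (51.9) was followed by Nfatc3 (41.8), the calcineurin subunits Ppp3r1 (37.6), Ppp3cb (26.7) and Ppp3ca (12.3), the calcium sensor Stim1 (28.0), its channel Orai1 (21.9) and Nfatc2 (16.4). Among the negative regulators, the diacylglycerol kinases Dgka (503) and Dgkz (163) and the phosphatase Ptpn6 (SHP-1, 109) were the most abundant. The phosphatases Ptpn22 (63.3) and Ptpn11 (SHP-2, 20.8), Ubash3a (31.7) and the ubiquitin ligases Cbl (33.6) and Cblb (23.5) were lower.

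**Figure D1:**
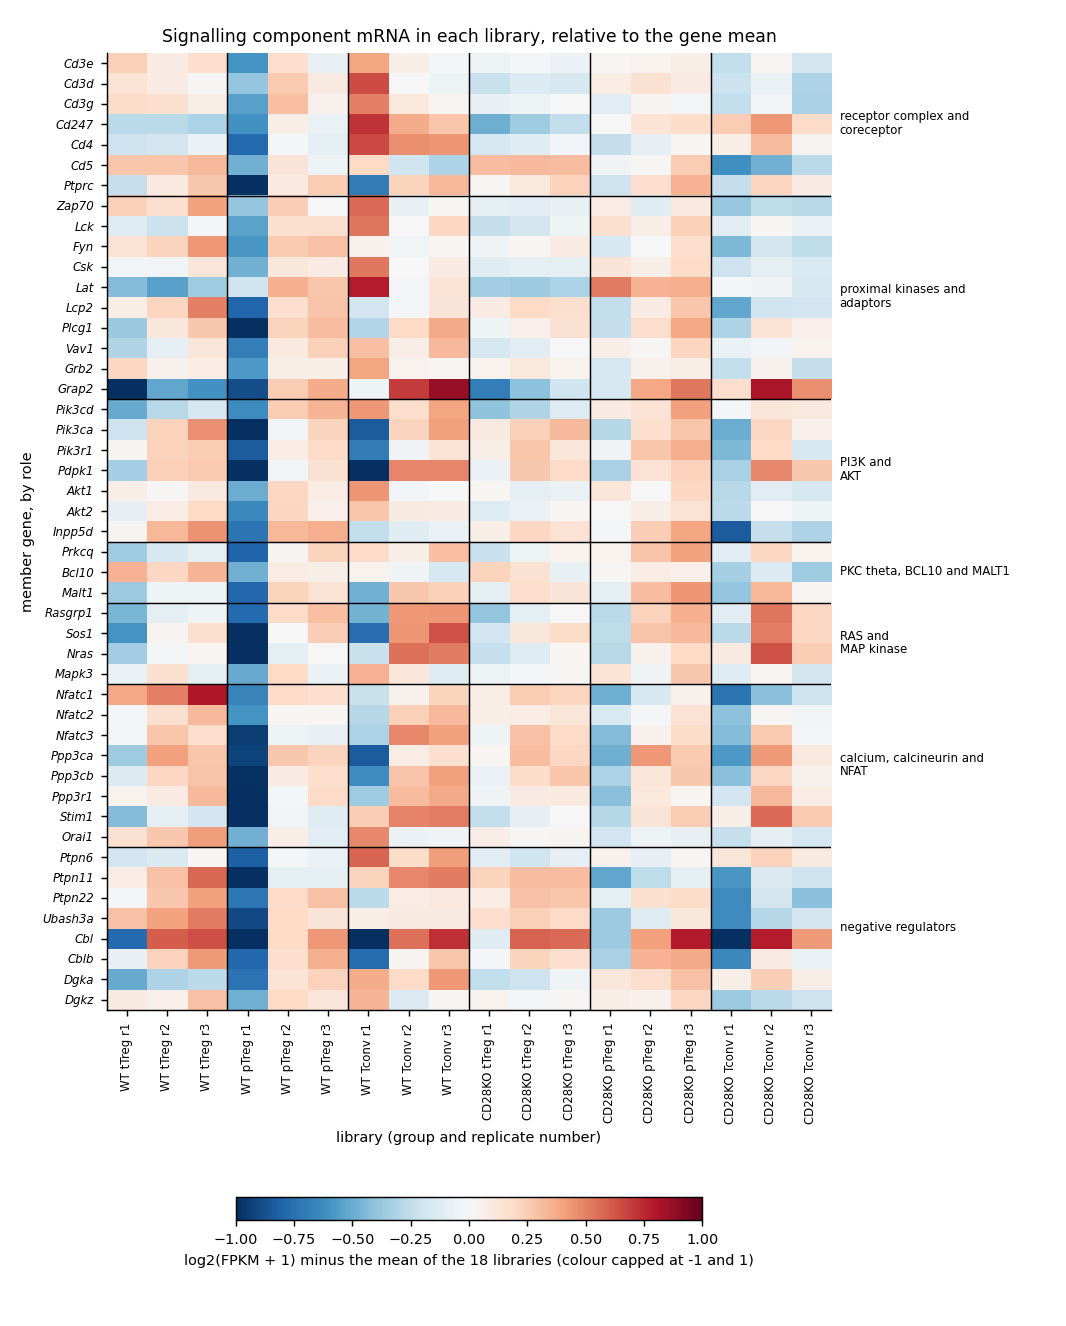
Each row is one of the 47 component genes, grouped by role, and each column one library; colour is log2(FPKM + 1) minus the gene's mean over the 18 libraries, capped at -1 and 1. WT pTreg replicate 1 is blue in all rows, Grap2 is low in the tTreg columns, and the deepest blue in the replicate 1 columns falls on genes such as Cbl.

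The libraries were not equal, and this touches each comparison below. In WT pTreg replicate 1 all 47 components had their lowest value of the group. They stood at a median of 0.528 of the mean of the other libraries of the group, a log2 ratio of -0.92. The median log2 ratio over all tested genes was -0.73. It was taken from FPKM + 1 and the ratio of the components from FPKM, so these values are not on the same scale. Replicate 1 of every group also departed from the other libraries along transcript length. Across the 47 components, Spearman's rho between the length of the longest coding transcript in GENCODE M21 and the log2 ratio of replicate 1 to the mean of replicates 2 and 3 was -0.78 in WT tTreg, -0.75 in WT pTreg, -0.81 in WT Tconv, -0.65 in CD28KO tTreg, -0.80 in CD28KO pTreg and -0.86 in CD28KO Tconv. These are descriptions across genes of 1 library each. In WT Tconv replicate 1 the 15 shortest components were at a median of 0.43 above the other libraries and the 15 longest at 0.84 below them (median log2 ratio -0.84). Cbl, with the longest transcript of the set (11372 nt), had its lowest value in replicate 1 of all 6 groups. In WT Tconv it measured 3.25, 42.5 and 48.1 FPKM, in CD28KO Tconv 13.1, 50.0 and 38.8, and in WT tTreg 16.3, 44.1 and 45.3. It measured 8.72, 33.0 and 39.1 in WT pTreg, 22.0, 38.4 and 50.3 in CD28KO pTreg, and 26.2, 43.4 and 42.8 in CD28KO tTreg. Lat, among the shortest (1235 nt), was highest in replicate 1 in WT Tconv (950 FPKM against 545 and 604). The labels do not say what replicate 1 shares across groups, and the cause was not tested. Results without all 6 replicate 1 libraries, a setting chosen after this relation was seen, are given beside several of the counts below.

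**Figure D2:**
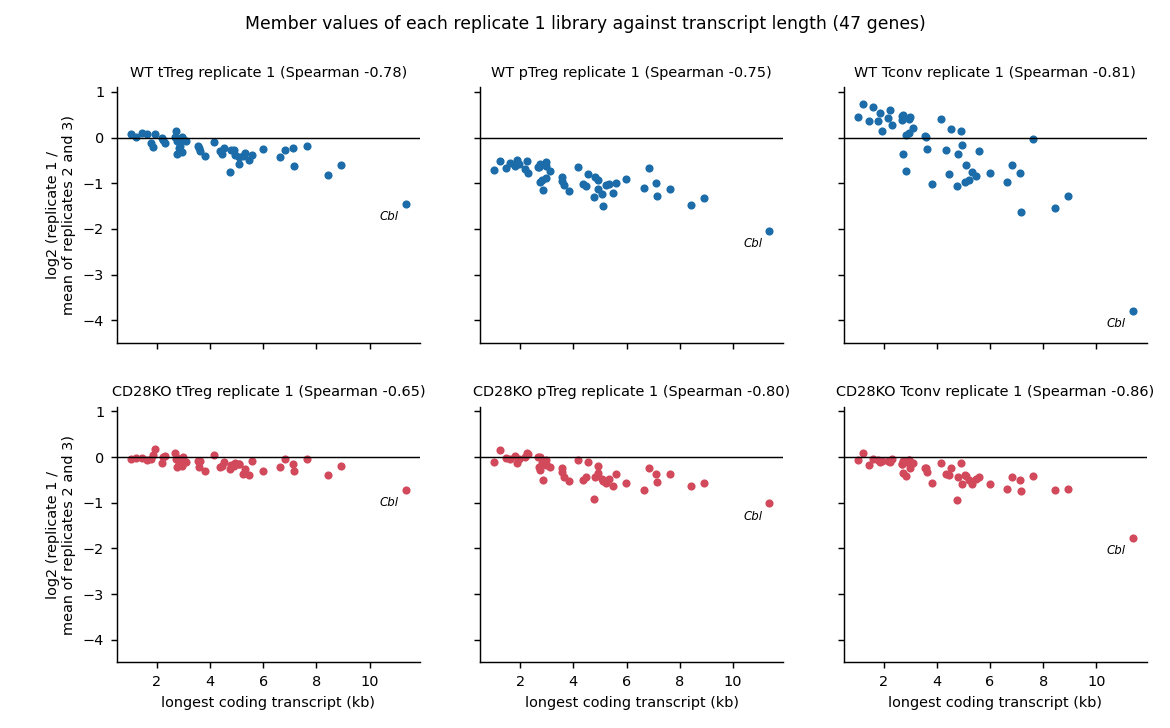
Each panel is the replicate 1 library of one group and each point one of the 47 genes: the x axis is the longest coding transcript in kb, and the y axis the log2 ratio of replicate 1 to the mean of replicates 2 and 3 (0 is the line). Points slope down in all 6 panels (Spearman -0.65 to -0.86), and Cbl, at the far right, is the lowest point in each.

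The first question was whether the signalling components themselves change when CD28 is absent. In the libraries labelled CD28KO, 0 of 47 components passed the limma test (adjusted p under 0.05) against WT in tTreg, in pTreg and in Tconv, where 0.204%, 0.204% and 0.791% of all tested genes were called. At an unadjusted p under 0.05 the counts were 0 in tTreg, 0 in pTreg and 4 in Tconv (Cd3g, Cd4, Ptpn11 and Zap70), against 3.82%, 4.44% and 9.66% of all genes, so none of these shares was above that of all genes. Averaged over the 3 populations, 0 of 47 were called (1.56% of all genes), and 2 had an unadjusted p under 0.05, Nfatc1 and Zap70 (8.23% of all genes). The median component differed by -0.02 in tTreg (all genes -0.05), 0.22 in pTreg (all genes 0.19), -0.25 in Tconv (all genes -0.16) and -0.003 on average (all genes -0.01). In pTreg 46 of 47 components were above 0 and in Tconv 39 of 47 below it as deposited, and the median of all genes moved the same way. After quantile normalization, which brings the median of all genes to 0.02 and 0.00, 32 were above 0 in pTreg and 24 below it in Tconv. The pTreg direction turned without the 3 libraries that stood apart, WT pTreg replicate 1 among them: 34 of 47 were then below 0 (median -0.06, all genes -0.06). Without the replicate 1 libraries 26 were above 0 in pTreg (median 0.02, all genes 0.01). In Tconv 46 were below 0 in both of these settings.

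The intervals show what differences remain possible. The 95% interval lay within 1 log2 unit of 0 for 46 components in tTreg, 40 in pTreg and 45 in Tconv, and for 46 in the average; it lay within 0.585, a 1.5-fold change, for 24, 15 and 2, and for 41 in the average. A 1.5-fold change in one population thus lies inside the interval of most components in pTreg and Tconv. Cbl, whose replicate 1 values lie apart, had the widest intervals, from -1.49 to 1.85 in tTreg.

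**Figure D3:**
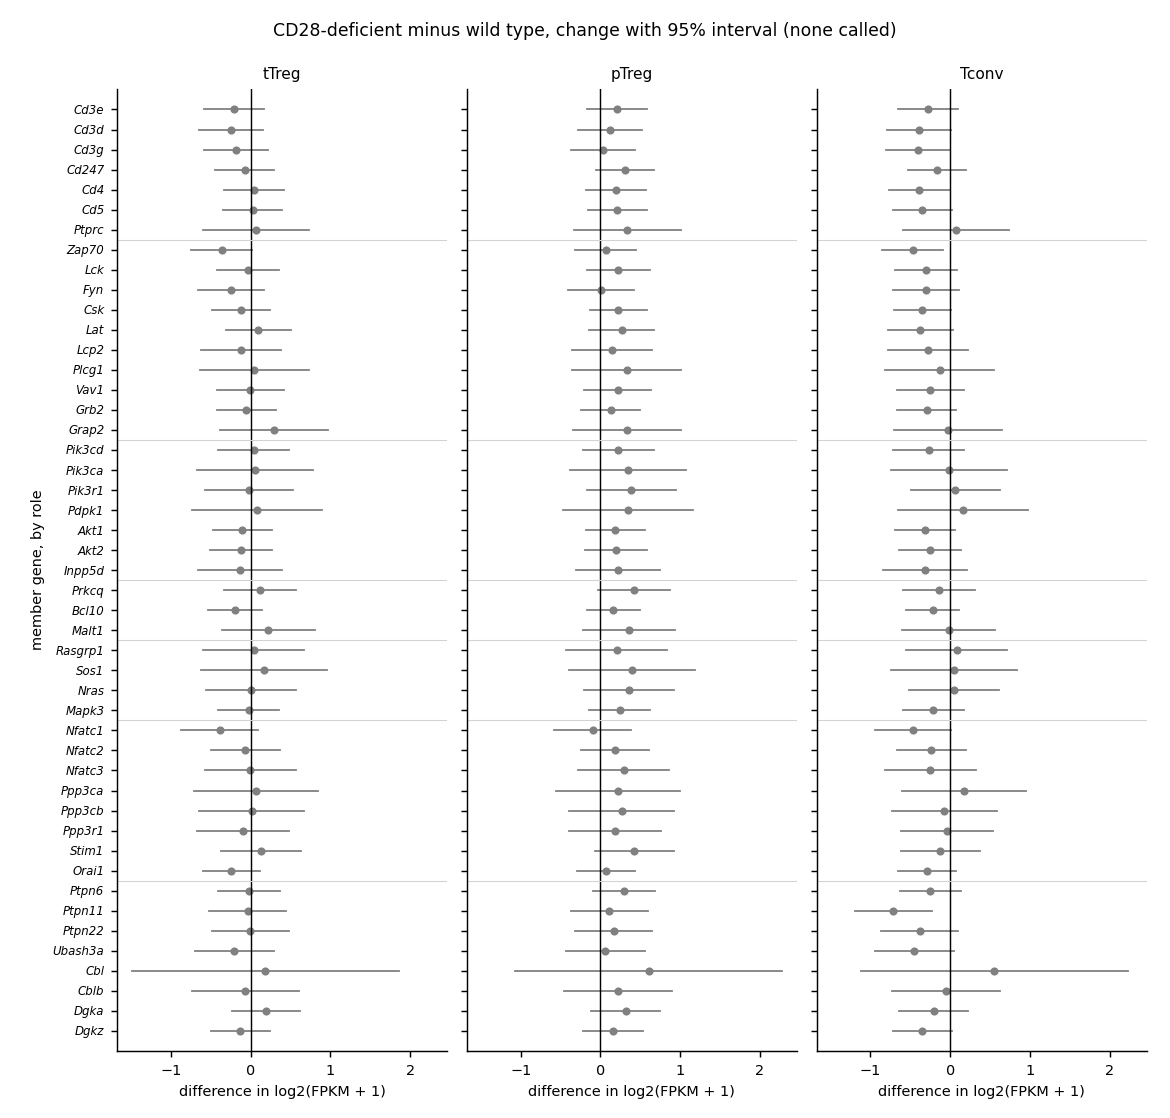
Points are the CD28KO minus WT difference in log2(FPKM + 1) of each component in tTreg, pTreg and Tconv, and bars the 95% limma intervals, with genes on the y axis ordered by role. None is called; the points sit to the right of 0 in pTreg, except Nfatc1 (-0.10), and mostly to the left in Tconv, and Ptpn11 in Tconv (-0.72) lies farthest from 0.

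Cd3e measured 548, 491 and 525 FPKM in WT tTreg and 448, 459 and 447 in CD28KO tTreg, groups that do not overlap but whose difference of -0.21 ± 0.18 (SE) had an adjusted p of 1 with limma. In pTreg Cd3e was 306, 524 and 441 against 471, 476 and 484, and in Tconv 610, 483 and 461 against 392, 470 and 410. These groups overlap. Lck, the kinase that starts the cascade, was 360, 339 and 388 FPKM in WT tTreg and 334, 347 and 382 in CD28KO tTreg, and its interval ran from -0.42 to 0.36. Vav1 and Grb2, which bind the CD28 signalling complex, differed by -0.004 and -0.05 in tTreg, 0.21 and 0.13 in pTreg and -0.25 and -0.30 in Tconv. Pik3r1, whose product docks on the CD28 tail, measured 39.4 ± 3.4 (SD, n = 3) against 38.8 ± 3.2 FPKM in tTreg, 31.9 ± 11.1 against 40.4 ± 5.9 in pTreg and 31.2 ± 9.1 against 32.1 ± 7.5 in Tconv. Prkcq was 82.9 ± 7.6 against 90.4 ± 8.3 in tTreg, 87.7 ± 29.9 against 114 ± 14.7 in pTreg and 109 ± 9.1 against 98.99 ± 11.04 in Tconv. Neither gene passed the test in any population.

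The components farthest below 0 were Nfatc1, Zap70 and Ptpn11, none of them called. Nfatc1, an NFAT factor that is induced by its own pathway, measured 65.9, 71.2 and 88.02 FPKM in WT tTreg against 52.3, 59.7 and 58.1 in the libraries labelled CD28KO (-0.39 ± 0.23), without overlap. It was 31.2, 57.2 and 56.3 against 35.4, 44.7 and 51.7 in pTreg (-0.10) and 42.8, 51.6 and 58.6 against 29.7, 37.2 and 43.3 in Tconv (-0.47). Zap70 was 148, 140 and 166 FPKM in WT tTreg against 117, 115 and 119 (-0.37 ± 0.18), with no overlap; 95.3, 148 and 125 against 132, 115 and 134 in pTreg (0.07); and 186, 119 and 126 against 95.7, 104 and 103 in Tconv (-0.47 ± 0.18, limma adjusted p = 0.427). Ptpn11, which encodes SHP-2, a phosphatase that mostly promotes RAS signalling but also binds inhibitory receptors, was 23.4, 28.3 and 29.0 FPKM in WT Tconv against 13.0, 17.99 and 17.2 in CD28KO Tconv, a difference of -0.72 ± 0.23 with no overlap and a limma adjusted p of 0.285. In tTreg it was 21.0, 24.7 and 30.2 against 23.4, 24.9 and 24.95, and in pTreg 9.39, 18.7 and 18.6 against 13.6, 16.6 and 18.7, so it overlapped in both Treg subsets. Toward higher values the components farthest from 0 were Grap2 (0.29 ± 0.32) and Malt1 (0.22 ± 0.27) in tTreg, Cbl (0.60 ± 0.79) and Stim1 (0.43 ± 0.24) in pTreg, and Cbl (0.55 ± 0.79) and Ppp3ca (0.18 ± 0.37) in Tconv. In pTreg the lowest after Nfatc1 was Fyn (0.01 ± 0.20).

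Ptpn11 in Tconv is the component whose call changed with the processing. With replicate number as a block, which pairs libraries in Tconv, it was called at -0.72 ± 0.15 and a limma adjusted p of 0.0312 (1.26% of all genes called). It was also called after quantile normalization (0.921% of all genes called), without WT pTreg replicate 1, without the 3 libraries that stood apart (CD28KO Tconv replicate 3, WT pTreg replicate 1 and WT Tconv replicate 1; -0.86 ± 0.18, adjusted p = 0.0253, 2.54% of all genes called) and without all replicate 1 libraries (-0.68 ± 0.10, adjusted p = 0.0294, 0.546% of all genes called). For the average over populations, leaving out those 3 libraries gave 5 calls, all lower in the libraries labelled CD28KO, where 7.39% of all genes were called: Nfatc1 (-0.49), Ptpn11 (-0.36), Ubash3a (-0.35), Fyn (-0.28) and Zap70 (-0.25). Without the replicate 1 libraries the calls were Nfatc1 (-0.37) and Ptpn11 (-0.29), with 2.99% of all genes called, and without WT pTreg replicate 1 alone they were Fyn, Nfatc1 and Ubash3a (4.77%).

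Overlap of the library values was also counted. In tTreg 10 components were lower in every CD28KO library than in every WT library (15.1% of all genes) and 1, Dgka, was higher in each (2.68%). The 10 were Cd3e, Cd3d, Cd3g, Zap70, Fyn, Csk, Nfatc1, Orai1, Ubash3a and Dgkz. In pTreg 0 were separated in either direction (4.57% higher and 1.86% lower among all genes). In Tconv 16 were lower in every library (18.2% of all genes) and 0 higher (0.506%). The members of that group ran from the receptor (Cd3d, Cd3g, Cd4) through proximal genes (Zap70, Fyn, Csk, Lat, Lcp2, Vav1) and the PI3 kinase branch (Pik3cd, Akt1, Akt2) to Orai1, Ptpn11, Ubash3a and Dgkz.

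Whether the CD28 effect differed between populations was tested directly as the difference of the CD28KO minus WT differences. 0 of 47 components passed in pTreg minus tTreg (0.0245% of all genes), tTreg minus Tconv (0.122%) or pTreg minus Tconv (0.0734%), and 0 passed in any alternative run. The unadjusted counts under 0.05 were 0, 1 (Ptpn11) and 5 (Cd4, Cd5, Csk, Lat and Ptpn11). Among all genes the shares were 1.47%, 2.18% and 8.75%. The largest differences were those of Ptpn11 (0.68 ± 0.32) and Lat (0.47 ± 0.27) for tTreg minus Tconv and of Ptpn11 (0.83 ± 0.32, limma adjusted p = 0.467) and Lat (0.64 ± 0.27) for pTreg minus Tconv. For pTreg minus tTreg they were Zap70 (0.43 ± 0.26) and Cbl (0.42 ± 1.11). The lowest values in these tests were Grap2 (0.04 ± 0.45) and Dgka (0.13 ± 0.29) in the last, Cbl (-0.37 ± 1.11) and Ppp3ca (-0.11 ± 0.52) for tTreg minus Tconv, and Ppp3ca (0.04 ± 0.52) and Cbl (0.05 ± 1.11) for pTreg minus Tconv. The precision was low: 7 of 47 intervals for pTreg minus Tconv lay within 1 log2 unit of 0.

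Of the 47 components, 8 were called in at least 1 of the 14 comparisons of the main fit (all libraries, as deposited, no block). Each of these calls was between sorted populations, and 39 components were called in no comparison of that fit. Some of the 39 were called in alternative runs, among them Ptpn11 for CD28KO minus WT in Tconv. Averaged over both subsets and genotypes, Treg minus Tconv called 6 of 47 components, with 17.4% of all genes called. The share of components called was below that of all genes in this fit, but not in every alternative given below. Lower in Treg were Cd247, Cd4, Grap2, Ptpn6 and Stim1 (5.67% of all genes were called lower), and Cd5 was higher (11.7%). After quantile normalization 8 components were called higher and 8 lower. The median component differed by -0.01 (all genes 0.00).

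Cd247 was lower in Treg. It measured 122, 123 and 119 FPKM in WT tTreg, 96.6, 155 and 141 in WT pTreg and 245, 191 and 179 in WT Tconv. In the libraries labelled CD28KO it measured 105, 116 and 125 in tTreg, 148, 162 and 168 in pTreg and 176, 200 and 169 in Tconv. Every Treg library was below every Tconv library, although CD28KO pTreg came close to CD28KO Tconv (168 against 169 FPKM at the nearest). The averaged difference was -0.56 ± 0.11 (limma adjusted p = 0.000879). Cd4, whose product brings LCK to the receptor, measured 167, 170 and 185 FPKM in WT tTreg, 112, 192 and 181 in WT pTreg and 306, 267 and 262 in WT Tconv, and 171, 178 and 189, 164, 183 and 196, and 201, 241 and 197 in the CD28KO counterparts. The gap was wide in WT and narrow in CD28KO, where Tconv was nearer to both Treg subsets, and the averaged difference was -0.49 ± 0.11 (adjusted p = 0.00356). That the gap differed by genotype was tested as the difference of CD28 effects, and Cd4 did not pass (0.43 ± 0.25 for tTreg and 0.58 ± 0.25 for pTreg minus Tconv, limma adjusted p = 0.9998 and 0.467). Cd5, a receptor that dampens antigen receptor signals and is set by their strength in the thymus, went the other way. It measured 235, 235 and 243 FPKM in WT tTreg and 241, 243 and 241 in CD28KO tTreg, a narrow range, against 223, 169 and 156 in WT Tconv and 127, 139 and 161 in CD28KO Tconv. In pTreg it measured 138, 212 and 187 and 189, 196 and 232. The averaged difference was 0.41 ± 0.11 (adjusted p = 0.0104). WT pTreg was the 1 Treg group that overlapped the Tconv of its genotype.

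Grap2, the GADS adaptor that links SLP-76 to LAT, had the largest difference. It measured 37.5, 54.6 and 51.3 FPKM in WT tTreg, 42.1, 93.9 and 102 in WT pTreg and 76.5, 129 and 145 in WT Tconv. In CD28KO it measured 48.5, 59.0 and 68.5 in tTreg, 69.7, 103 and 114 in pTreg and 89.1, 139 and 109 in Tconv. Within each group the lowest value was that of replicate 1 (its longest transcript has 5475 nt), and tTreg was separate from Tconv in both genotypes while pTreg overlapped it. The averaged difference was -0.75 ± 0.20 (limma adjusted p = 0.0119). Stim1, the sensor of calcium in the endoplasmic reticulum, measured 19.8, 25.4 and 23.5 FPKM in WT tTreg, 12.7, 26.5 and 24.8 in WT pTreg and 32.3, 38.6 and 39.1 in WT Tconv. Its CD28KO values were 22.6, 25.5 and 26.9 in tTreg, 22.0, 29.7 and 32.4 in pTreg and 28.3, 40.5 and 32.6 in Tconv. Both WT Treg subsets were separate from Tconv, and the averaged difference was -0.54 ± 0.14 (adjusted p = 0.014). Ptpn6, a phosphatase that shuts down proximal kinases, measured 94.1, 96.9 and 109 in WT tTreg, 60.8, 107 and 103 in WT pTreg and 162, 122 and 144 in WT Tconv, with 99.2, 93.6 and 101, 111, 102 and 109, and 117, 126 and 114 in CD28KO. Every Treg library was again below every Tconv library of its genotype. The averaged difference was -0.41 ± 0.11 (adjusted p = 0.0164).

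Cd247, Cd4, Cd5 and Grap2 were called in all 26 alternatives run for the averaged comparison, and Stim1 and Ptpn6 in 25 of them. Both missed the threshold without CD28KO Tconv replicate 2 (limma adjusted p = 0.0553 and 0.0510). More components were called as the uneven libraries were blocked or removed: 11 with the replicate block (23.5% of all genes called), 16 after quantile normalization (32.8%), 18 without the 3 libraries that stood apart (27.4%) and 20 without the replicate 1 libraries (32.0%). Without WT pTreg replicate 1 alone there were 16 (24.4%). Inpp5d, Ptpn22, Nfatc1, Nras and Dgka were called in each of the first 4 of these settings. Without the replicate 1 libraries Inpp5d was higher in Treg by 0.49 ± 0.05, Ptpn22 by 0.37 ± 0.06 and Nfatc1 by 0.34 ± 0.08, and the differences of Nras and Dgka were -0.49 ± 0.08 and -0.23 ± 0.07. The summed FPKM of 6 resting T cell genes moved with the same groups, from 610 to 1176 in the Treg libraries to 1386 to 1753 in the Tconv libraries, and its part in these differences was not tested. In bulk libraries fewer cells with a transcript and less of it per cell cannot be told apart.

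**Figure D4:**
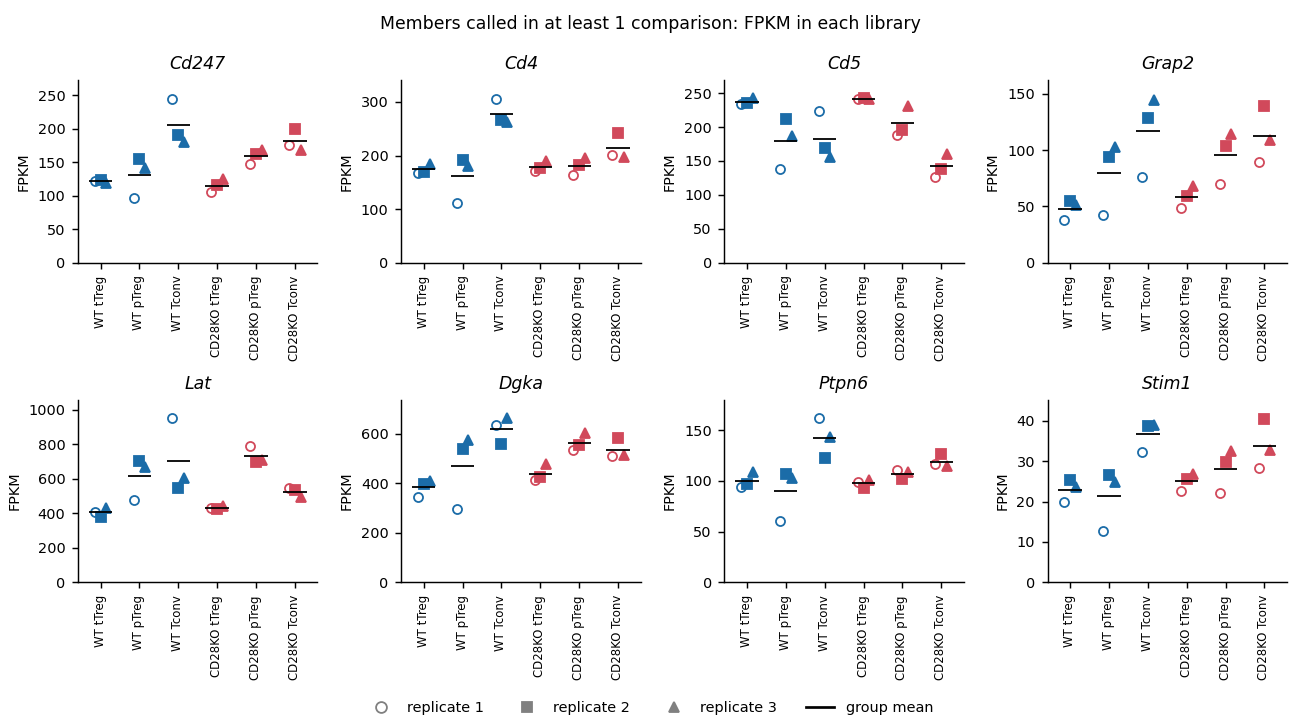
FPKM (y axis) of the 8 components called in at least 1 comparison of the main fit, in each library of the 6 groups (x axis). Circles, squares and triangles are replicates 1, 2 and 3, blue is WT and red CD28KO, and the bar is the mean of 3. Cd247, Cd4, Ptpn6 and Stim1 are highest in Tconv, Cd5 is highest in tTreg, and Lat is low in tTreg, with replicate 1 of WT pTreg at the bottom of its group in every panel.

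Cd247 lies on chromosome 1 (chr1:165788681-165877277, GRCm38, GENCODE M21, plus strand), and its exons share bases with Gm16565 and, on the other strand, with Pou2f1. Ptpn6 (chr6:124720707-124738714, minus strand) shares exonic bases with Gm20531 and Dgka (chr10:128720134-128744855, minus strand) with Pmel, both on the other strand. In all, 11 of the 47 components share exonic bases with another gene on either strand, Lck and Ppp3r1 only with a gene on the same strand. The strand setting of the counting is not given in the sources used here, so reads of these pairs may not have been told apart. Cd4 (chr6:124864692-124888221), Cd5 (chr19:10717116-10739002), Grap2 (chr15:80572594-80652854), Stim1 (chr7:102267806-102437319) and Lat (chr7:126363824-126369570) share none.

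Upstream sequence is shown for the components called in the averaged Treg minus Tconv comparison, on which the population results turn: RefSeq (GRCm38.p6) has a single promoter entry for 5 of the 6, and Cd4 is not shown. Each run is 200 bases, from 250 to 51 bases before the start site, 5′ to 3′ on the gene's strand. Capitals mark matches, on either strand, to 7 motifs: forkhead GTAAACA, ETS CCGGAA, RUNX TGTGGT, NFAT TGGAAA, an E box CAGCTG, a GC box GGGCGG and TATAAA.
Cd247 (chr1:165788431-165788630, plus strand): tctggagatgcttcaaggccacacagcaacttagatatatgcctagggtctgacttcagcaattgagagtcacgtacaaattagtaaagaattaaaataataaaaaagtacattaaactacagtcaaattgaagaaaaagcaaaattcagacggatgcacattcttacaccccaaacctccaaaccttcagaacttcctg
Grap2 (chr15:80623233-80623432, plus strand): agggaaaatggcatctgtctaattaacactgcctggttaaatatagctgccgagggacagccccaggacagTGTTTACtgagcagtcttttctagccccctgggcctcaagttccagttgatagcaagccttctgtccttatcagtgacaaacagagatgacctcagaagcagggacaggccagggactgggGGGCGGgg
Ptpn6 (chr6:124738760-124738959, minus strand): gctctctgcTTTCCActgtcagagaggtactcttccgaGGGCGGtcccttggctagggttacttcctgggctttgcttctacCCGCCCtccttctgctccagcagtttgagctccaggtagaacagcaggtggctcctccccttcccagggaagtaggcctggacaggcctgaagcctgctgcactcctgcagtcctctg
Stim1 (chr7:102267569-102267768, plus strand): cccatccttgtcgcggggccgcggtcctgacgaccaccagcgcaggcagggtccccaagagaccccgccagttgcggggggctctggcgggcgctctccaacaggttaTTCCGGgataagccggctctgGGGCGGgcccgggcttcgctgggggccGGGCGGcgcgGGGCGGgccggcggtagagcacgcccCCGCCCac
Cd5 (chr19:10739025-10739224, minus strand): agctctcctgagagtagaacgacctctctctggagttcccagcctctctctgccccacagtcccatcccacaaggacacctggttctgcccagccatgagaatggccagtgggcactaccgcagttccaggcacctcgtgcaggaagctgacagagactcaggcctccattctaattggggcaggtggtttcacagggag

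In these windows Grap2 held 1 forkhead and 1 GC box match, Ptpn6 1 NFAT and 2 GC box matches and Stim1 1 ETS and 4 GC box matches, while Cd247 and Cd5 held 0 of the 7 motifs. The Cd247 window overlaps an exon of Gm16565, and the Grap2 entry starts inside the longer GENCODE gene. Of the 27 components with a single promoter entry, 12 (44.4%) held a GC box against 24.6% of all 32851 promoters, and 2 (7.41%) a forkhead match against 2.58%. All promoters include those of genes with several entries and of genes too low to be tested. The 2 sets are thus unlike in selection and expression, and these shares cannot show an enrichment. ETS was held by 4 (14.8% against 8.03%), RUNX by 1 (3.70% against 11.6%), NFAT by 3 (11.1% against 15.8%), the E box by 2 (7.41% against 10.3%) and TATAAA by 0 (against 9.14%). A match is a string of letters in this window and no measure of binding.

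Taken 1 subset at a time, tTreg differed from Tconv more than pTreg did in the number of components called, a comparison of counts with no test of its own. The shares of all genes called had the same order, so this is not particular to the components. With the replicate block both subsets called 8 components in WT (17.5% of all genes for tTreg and 9.21% for pTreg). In WT, tTreg minus Tconv called 5 components, all lower in tTreg (12.6% of all genes called, 4.26% lower and 8.33% higher): Grap2 (-1.24 ± 0.32, limma adjusted p = 0.0148), Lat (-0.745 ± 0.19, adjusted p = 0.015), Cd247 (-0.74 ± 0.17, adjusted p = 0.00721), Dgka (-0.69 ± 0.20, adjusted p = 0.0335) and Cd4 (-0.67 ± 0.18, adjusted p = 0.0175). Dgka, which ends RAS activation by converting diacylglycerol, measured 346, 397 and 410 FPKM in WT tTreg against 635, 561 and 665 in WT Tconv, and 415, 426 and 477 against 511, 583 and 514 in the libraries labelled CD28KO. The groups are separate in both genotypes, with a wider gap in WT. The highest uncalled differences in WT were Cbl (0.67 ± 0.79) and Nfatc1 (0.55 ± 0.23). In CD28KO, 2 components were called (12.1% of all genes, 9.63% higher and 2.47% lower): Cd247 was lower by -0.65 ± 0.17 (limma adjusted p = 0.0173) and Cd5 higher by 0.77 ± 0.17 (adjusted p = 0.00545). Grap2 (-0.92 ± 0.32, adjusted p = 0.0823) and Nfatc1 (0.63 ± 0.23, adjusted p = 0.0979) had larger or similar differences but missed the threshold. Leaving out 1 library ended some calls. In WT, Grap2 missed the threshold without tTreg replicate 1 or Tconv replicate 2 or 3 (adjusted p of 0.0590 to 0.0749), Cd4 without tTreg replicate 1 or 2 or Tconv replicate 1 (0.0541 to 0.0640), Lat without tTreg replicate 2 (0.0678), and Dgka without any tTreg library or Tconv replicate 1 or 3 (0.0672 to 0.130). In CD28KO, Cd247 missed it without tTreg or Tconv replicate 1 or 2 (0.0514 to 0.0922), while Cd5 in CD28KO and Cd247 in WT passed in all 27 alternatives. Without WT pTreg replicate 1, which enters through the shared variance, 11 components were called in WT (19.2% of all genes called) and 9 in CD28KO (17.3%). Without the replicate 1 libraries, tTreg minus Tconv called 18 components in WT (22.4% of all genes) and 11 in CD28KO (18.2%), Cd247, Cd5, Grap2, Inpp5d, Nfatc1, Nras, Rasgrp1, Stim1 and Ubash3a in both. With the block the counts were 8 (17.5% of all genes) and 8 (16.6%). After quantile normalization the calls split into 7 higher and 9 lower in WT (25.3% of all genes called) and 7 and 6 in CD28KO (23.0%). Of the components, 6 were higher in every WT tTreg library than in every WT Tconv library (14.1% of all genes) and 10 lower (14.4%); in CD28KO 14 were higher (26.5%) and 9 lower (10.7%).

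In WT, pTreg minus Tconv called 3 components, all lower in pTreg (4.49% of all genes called, 2.44% lower and 2.05% higher): Cd4 (-0.81 ± 0.18, limma adjusted p = 0.0121), Ptpn6 (-0.69 ± 0.18, adjusted p = 0.0393) and Cd247 (-0.66 ± 0.17, adjusted p = 0.0379). Here all genes had shifted by a median of -0.21 and 42 of 47 components were below 0 (30 after quantile normalization, where the median of all genes is -0.04). Without the 3 libraries that stood apart, or without the replicate 1 libraries, 22 were below 0 and 25 above (median 0.03, all genes 0.02). Stim1 (-0.81 ± 0.24, adjusted p = 0.064) came next, and Cbl (0.18 ± 0.79) and Inpp5d (0.13 ± 0.25) were the highest. The calls changed without WT pTreg replicate 1 and WT Tconv replicate 1: without these and CD28KO Tconv replicate 3, Cd4 alone was called (-0.50 ± 0.11, adjusted p = 0.0146, 8.25% of all genes called), Cd247 missed the threshold (-0.33, adjusted p = 0.0897), and with only WT pTreg and WT Tconv in the model 0 were called (1.74%). Without WT pTreg replicate 2 there were 5 (4.30%), with Ptpn11 and Stim1 added. Cd247 also missed the threshold when any 1 of 13 libraries was left out (all but WT pTreg replicate 2, WT Tconv replicate 3, CD28KO pTreg replicate 1 and CD28KO Tconv replicates 2 and 3; adjusted p of 0.0518 to 0.115), and Ptpn6 when any 1 of 14 was (all but the WT pTreg libraries and WT Tconv replicate 2; 0.0510 to 0.121). In CD28KO, 0 were called (5.85% of all genes, 4.80% higher and 1.05% lower). Before adjustment, p lay under 0.05 for 5 (Cd5, Dgkz, Inpp5d, Lat and Ptpn22), against 16.4% of all genes. The largest differences were Inpp5d (0.67 ± 0.25), Cd5 (0.53 ± 0.17), Nras (-0.34 ± 0.27) and Stim1 (-0.26 ± 0.24). Without the 3 libraries that stood apart 8 were called, all higher in pTreg (17.0% of all genes), led by Inpp5d (0.74 ± 0.18) and Cd5 (0.62 ± 0.10). After quantile normalization the split was 2 higher and 5 lower (10.3% of all genes called) with all libraries kept. Without WT pTreg replicate 1 alone, Cd5, Inpp5d and Ptpn22 were called higher (11.3% of all genes called), and without WT Tconv replicate 1 alone, Cd5 and Lat (8.02%). The library values were separate for 0 components toward higher (3.82% of all genes) and 5 toward lower values in WT (9.56%), and for 13 (26.4%) and 3 (3.71%) in CD28KO.

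Between the Treg subsets, Lat was the 1 component called in the main fit, and only in CD28KO. It measured 408, 377 and 430 FPKM in WT tTreg against 478, 702 and 666 in WT pTreg, and 431, 427 and 441 in CD28KO tTreg against 787, 699 and 709 in CD28KO pTreg. All 6 tTreg libraries were below all 6 pTreg libraries. The difference was -0.75 ± 0.19 in CD28KO (limma adjusted p = 0.0354), where 4.08% of all genes were called (3.13% higher and 0.946% lower). In WT it was -0.58 ± 0.19 (adjusted p = 0.12), where 0 components were called (4.93% of all genes, 4.44% higher and 0.489% lower). Before adjustment, p lay under 0.05 in WT for 7 components, against 14% of all genes. The low WT pTreg replicate 1 bears on the WT test: without it Lat, Pik3cd and Dgka were called there (4.83% of all genes called) and Cd247, Lat, Pik3cd and Ptpn11 in CD28KO (6.78%), without WT Tconv replicate 1 Lat was called in WT (5.54%), and without all replicate 1 libraries Lat was called in both genotypes (-0.76 ± 0.10 and -0.70 ± 0.10, adjusted p = 0.00536 and 0.00815). After quantile normalization 5 components were called higher and 1 lower in WT (8.75% of all genes called), and 3 higher and 2 lower in CD28KO (9.29%). The CD28KO call was lost when any 1 of 10 libraries was left out: each of the CD28KO tTreg and CD28KO pTreg libraries (differences of -0.78 to -0.70, adjusted p of 0.0928 to 0.158), and WT tTreg replicates 1 and 2 and CD28KO Tconv replicates 1 and 2 (-0.75, adjusted p of 0.0501 to 0.0518). It was also lost without the 2 libraries with transcripts of another population, CD28KO tTreg replicate 3 and CD28KO Tconv replicate 3 (adjusted p = 0.121). Grap2 was the next lowest in tTreg (-0.64 ± 0.32 in WT and -0.68 ± 0.32 in CD28KO, neither called).

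Ptpn11 and Nfatc1 were the components with the largest differences toward higher values in tTreg. Ptpn11 (0.71 ± 0.23 in WT, limma adjusted p = 0.101, and 0.57 ± 0.23 in CD28KO, adjusted p = 0.265) was higher in every tTreg library than in every pTreg library of the same genotype, and so was Nfatc1 (0.67 ± 0.23, adjusted p = 0.132, and 0.38 ± 0.23, adjusted p = 0.547). Replicate numbers pair the libraries in both of these comparisons, and with the block Ptpn11 was called in both genotypes (adjusted p = 0.0071 and 0.0393) and Nfatc1 in WT (adjusted p = 0.00751). The block called 4 components in WT (9.98% of all genes), Grap2, Nfatc1, Nfatc3 and Ptpn11, and 3 in CD28KO (6.53%), Lat, Grap2 and Ptpn11. Without the replicate 1 libraries Ptpn11 was called in both genotypes (0.53 ± 0.10 and 0.48 ± 0.10), as were Grap2 and Pik3cd, both lower in tTreg (7.92% and 7.00% of all genes called). As deposited, 7 components were higher (12.6% of all genes) and 1 lower (2.03%) in every WT tTreg library, and 5 were higher (11.9%) and 12 lower (21.5%) in CD28KO.

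**Figure D5:**
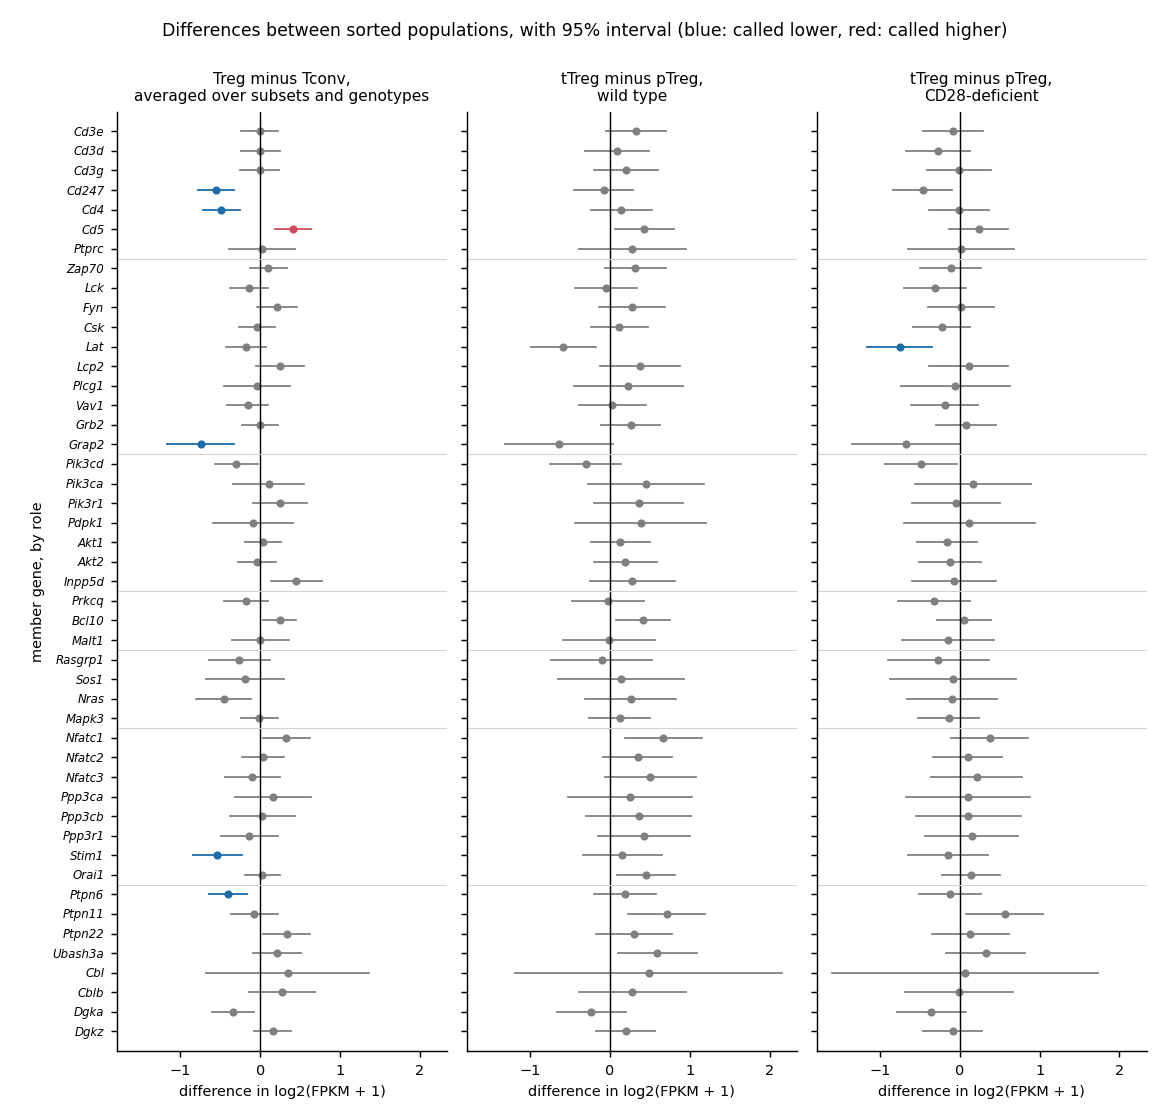
Points are differences in log2(FPKM + 1) of each component with 95% limma intervals, for Treg minus Tconv averaged over subsets and genotypes and for tTreg minus pTreg in WT and in CD28KO; blue is called lower, red called higher and grey not called, with genes on the y axis ordered by role. Cd247, Cd4, Grap2, Stim1 and Ptpn6 lie to the left and Cd5 to the right in the first panel, and Lat lies to the left in both others.

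Ratios of 2 components within a library remove shifts shared by all genes of that library, and are given as description. Cd247 relative to Cd3e lay between 0.223 and 0.346 in the 12 Treg libraries and between 0.389 and 0.449 in the 6 Tconv libraries, and within Treg tTreg (0.223 to 0.279) lay below pTreg (0.295 to 0.346). By contrast, Cd3d and Cd3g relative to Cd3e overlapped (0.424 to 0.552 in Treg against 0.436 to 0.570, and 0.763 to 0.911 against 0.759 to 0.904). Within Treg, Cd3d relative to Cd3e was also lower in tTreg (0.424 to 0.477) than in pTreg (0.484 to 0.552), without overlap, whereas Cd3g relative to Cd3e overlapped (0.771 to 0.884 and 0.763 to 0.911). Cd4 relative to Cd3e lay between 0.305 and 0.424 in Treg and 0.482 and 0.569 in Tconv, and Cd5 relative to Cd3e between 0.401 and 0.539 in Treg and 0.295 and 0.393 in Tconv. Each of these 3 ratios separated all Treg from all Tconv libraries, WT pTreg replicate 1 and CD28KO Tconv replicate 3 included. Lat relative to Lcp2, its partner, separated the Treg subsets: 2.96 to 3.98 in tTreg against 5.32 to 9.13 in pTreg, with Tconv at 5.40 to 10.6. Ptpn6 relative to Ptpn11 did so too, at 3.61 to 4.48 in tTreg and 5.52 to 8.11 in pTreg, but Tconv, at 4.32 to 8.997, overlapped both. Dgka relative to Dgkz lay between 2.03 and 3.36 in Treg and 3.12 and 4.36 in Tconv, with overlap. Akt1 relative to Akt2 and Ppp3cb relative to Ppp3ca overlapped between the populations (0.830 to 1.01 and 1.74 to 2.66 over all libraries). Lat is shorter than Lcp2, and Ptpn6 shorter than Ptpn11, so these ratios move with the length relation of replicate 1 as well. Both were highest in replicate 1 of every group.

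Other genes of the pathway, 102 listed with the branches, 101 in the files and 99 tested, gave 0 calls for CD28KO minus WT in tTreg, pTreg, Tconv and the average. Among all genes 0.204%, 0.204%, 0.791% and 1.56% were called. Of the 99 tested, 0, 5, 10 and 6 had an unadjusted p under 0.05, against 3.82%, 4.44%, 9.66% and 8.23% of all genes. In the averaged Treg minus Tconv comparison 29 were called, 16 higher and 13 lower in Treg, with 17.4% of all genes called (11.7% higher and 5.67% lower). These genes were listed with earlier results of these data known, so their share is no test of the pathway. By branch the calls were 7 higher and 7 lower of 32 proximal genes, 1 and 2 of 15 PI3 kinase genes, 0 and 1 of 9 NF-kB genes, 1 and 2 of 16 RAS genes, 1 and 1 of 14 calcium genes and 6 and 0 of 13 negative regulators. The largest increases were Rgs1, which quenches G protein signals (3.37 ± 0.29), Cish, a cytokine-induced inhibitor (2.64 ± 0.21), Vav2 (1.93 ± 0.19) and Phlpp1, a phosphatase of AKT (1.18 ± 0.14); among the decreases were Themis, a regulator of thymic selection (-1.48 ± 0.25), the Tec kinase Txk (-0.95 ± 0.15) and Trat1 (-0.74 ± 0.24). Vav2 contrasts with its relative among the components, Vav1. Vav2 had group means of 13.8 ± 2.5 and 13.1 ± 0.4 FPKM in tTreg, 7.63 ± 2.78 and 8.17 ± 2.43 in pTreg and 1.88 ± 0.43 and 2.21 ± 1.53 in Tconv (WT and CD28KO, SD, n = 3), while Vav1 stayed between 48.7 and 61.5 and did not pass in any comparison. Single subsets gave 8 higher and 10 lower for tTreg minus Tconv in WT (8.33% and 4.26% of all genes) and 14 and 6 in CD28KO (9.63% and 2.47%), among them Pik3r5 (-1.27 ± 0.21 in WT), Pik3ip1 (-0.94 ± 0.21 in CD28KO) and Ndfip1 (0.97 ± 0.19 in WT). For pTreg minus Tconv the counts were 3 and 3 in WT (2.05% and 2.44% of all genes; Rgs1, Cish and Vav2 were higher, Themis and Orai2 among those lower) and 6 and 0 in CD28KO (4.80% and 1.05%), where Dok2 (0.87 ± 0.19) followed Vav2. Between the Treg subsets Phlpp1 was higher in tTreg in both genotypes (1.39 ± 0.23 and 1.25 ± 0.23), and in CD28KO Rnf128 (GRAIL, 0.84 ± 0.16) was higher and Txk (-0.95 ± 0.25) and Pik3ip1 (-0.84 ± 0.21) lower. CD28KO Tconv replicate 3, which carries Treg transcripts, belongs to the Tconv side of these differences.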

How the data were processed

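RNA-seq of 18 libraries, made from total RNA with the NEBNext Ultra kit and read as single 50-nt reads, was deposited as 1 FPKM value per gene and library. Per the submitters' processing notes the authors used Trimmomatic 1, TopHat2 2.0.11, Cufflinks and GRCm38; that the deposited values are FPKM was inferred from Cufflinks and from the values. Annotation and strand setting are not given in the sources used here. Depth is unknown, so no counting intervals are given.

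Libraries were grouped by title. The 12265 genes with FPKM of at least 1 in 3 or more libraries, all 47 components among them, were fitted as log2(FPKM + 1) with limma 3.58.1 (R 4.3.3), with all 18 libraries in the model, each group having its own mean, and with trended variances (12 residual and 4.06 prior degrees of freedom). Tests were two-sided, with Benjamini-Hochberg adjustment over all tested genes within each of 14 comparisons and calls at 0.05. Errors of changes are SE. The components, the other pathway genes and the markers were chosen with earlier results of these data known.

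Named are components called in any comparison, 10 set in advance (Cd3e, Cd247, Cd4, Cd5, Lck, Zap70, Vav1, Grb2, Pik3r1, Prkcq), the 2 largest changes each way per comparison, the highest and lowest of each role, and up to 4 called other pathway genes each way; others were chosen after their values were seen. Some items that the rule names are not reported here.

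Same-numbered libraries were taken as paired where deviations from group means correlated above 0.1 for all 3 numbers, which held in 6 of 9 comparisons of 2 groups (all but CD28KO minus WT in tTreg and pTreg and pTreg minus Tconv in WT). Alternatives were a pseudocount of 0.1, no filter, no trend, only the compared groups, quantile normalization, a replicate block, and leaving out each library, the 3 that stood apart or the 2 with transcripts of another population. Leaving out all 6 replicate 1 libraries was chosen after seeing the data. In data simulated for CD28KO minus WT in tTreg on 12265 genes, 2, 22, 41 and 47 of 50 genes were called at changes of 0.5, 1, 1.5 and 2 log2 units, with 4 false calls. The changed genes had a mean log2(FPKM + 1) above 3, and the simulated noise was normal and independent between genes. It lacked the shifts that genes share within the real libraries, so these counts need not hold for them.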

Additional observations from a re-analysis of the deposited data

How the results depend on the processing

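No call changed direction: of 453 values recomputed for the 17 calls, 385 passed the threshold again and 68 did not. The CD28KO minus WT count stayed at 0 in tTreg and pTreg, and the 3 differences of CD28 effects at 0, in every alternative. After quantile normalization the counts of components called were 1 (CD28KO minus WT in Tconv), 6 and 5 (tTreg minus pTreg in WT and CD28KO), 16 and 13 (tTreg minus Tconv), 5 and 7 (pTreg minus Tconv) and 16 (Treg minus Tconv averaged), and 49 other pathway genes were called in place of 29. The shares of all genes called were 0.921%, 8.75% and 9.29%, 25.3% and 23.0%, 10.3% and 10.3%, and 32.8%. In the same order the replicate block gave 1, 4 and 3, 8 and 8, 8 and 1, and 11. Beside these, 1.26%, 9.98% and 6.53%, 17.5% and 16.6%, 9.21% and 9.38%, and 23.5% of all genes were called. The block ended none of the 17 calls and changed no other count by over 1.5 times, and pTreg minus Tconv in WT is not paired. Without the 3 libraries that stood apart the counts were 1, 4 and 8, 12 and 13, 1 and 8, and 18, with 5 for CD28KO minus WT averaged. Without the 6 replicate 1 libraries the counts were 1, 6 and 5, 18 and 11, 7 and 4, and 20, with 2 for CD28KO minus WT averaged and 46 other pathway genes. Here 0.546%, 7.92% and 7.00%, 22.4% and 18.2%, 11.3% and 12.6%, and 32.0% of all genes were called, with 2.99% for CD28KO minus WT averaged. With only the compared groups the counts of components were 3 for tTreg minus pTreg in CD28KO, 9 for tTreg minus Tconv in CD28KO, and 0 and 1 for pTreg minus Tconv in WT and CD28KO. That setting is the same model for the averages. Without the 2 libraries with transcripts of another population the counts were 0 for tTreg minus pTreg in CD28KO and 1 for pTreg minus Tconv in WT. For these last settings most shares of all genes are not given, so their counts are no result about the components. The cause of the moves between settings was not tested.

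Leaving out 1 library at a time gave 0 to 1 components for CD28KO minus WT in Tconv, 0 to 3 for CD28KO minus WT averaged, 0 to 3 and 0 to 4 for tTreg minus pTreg in WT and CD28KO, 2 to 11 and 1 to 9 for tTreg minus Tconv, 1 to 5 and 0 to 3 for pTreg minus Tconv, 4 to 16 for Treg minus Tconv averaged, and 24 to 36 other pathway genes. The share of all genes called moved between such runs as well, so these ranges are no result about the components alone. With 3 libraries a group the median 95% interval of a component reached 0.45 log2 units either side, which limits the CD28 comparisons.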
